A study of Homo sapiens with 42 samples.

Results

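The genes described here are the clustered H2A and H2B histone genes, taken as every gene row whose symbol begins with HIST1, HIST2, HIST3 or HIST4 followed by H2A or H2B. There are 38 such rows among 26228 gene rows, 18 for H2A and 20 for H2B. Of these, 28 belong to the HIST1 cluster on chromosome 6, 8 to HIST2 and 2 to HIST3, both on chromosome 1, and 0 to HIST4. In at least 1 of 42 libraries 25 members reached 1 FPKM (fragments per kilobase of transcript, scaled to the library's mapped fragments), 13 reached it in none, and 6 reached it in all 42. The libraries are polyadenylated RNA from HAP1, a near-haploid line from a chronic myeloid leukaemia, in a C312S form and the WT form. C312S replaces the cysteine of the kinase CDK7 to which covalent CDK7 inhibitors attach. The C312S and WT lines each have 7 groups of 3 libraries: THZ1, YKL at 2 µM or at 500 nM combined with THZ531, YKL at 2 µM, YKL at 500 nM, THZ531, and DMSO, all for 24 h. YKL is read here as the covalent CDK7 inhibitor of the series title, THZ1 is a covalent inhibitor of CDK7 that also binds CDK12 and CDK13, and THZ531 is a covalent inhibitor of CDK12 and CDK13. The labels do not give the doses of THZ531 and THZ1, and a combination is labelled without its compounds, which were read from the column names. Whether the C312S line is 1 clone, and whether the libraries of a group are separate cultures, the labels do not say, so p-values measure the spread between libraries only.

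H2A and H2B form dimers that join H3 and H4 in the nucleosome core. Their clustered copies are transcribed mainly in S phase, and their messenger RNAs usually end in a stem-loop, bound by SLBP, instead of a poly(A) tail. Some of these genes also make polyadenylated transcripts, and those are the form that poly(A) selection retains, so a level here is not the total histone messenger RNA. Many H2A genes lie head to head with an H2B gene and share the promoter between them.

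The promoters of 4 members are shown because they span the range of responses below: HIST1H2BK had the highest level, HIST1H2AG shares its promoter with another strongly changed gene, HIST2H2BE has a partner that was not called higher in WT, and HIST3H2A had the smallest rise of the 8 highest members. Each window is from RefSeq (GRCh38.p14), covers 250 bases before to 50 after the annotated start, and lies at chr6:27146809-27147108, minus strand for HIST1H2BK, chr6:27132793-27133092, plus strand for HIST1H2AG, chr1:149886633-149886932, minus strand for HIST2H2BE and chr1:228457824-228458123, minus strand for HIST3H2A. Capitals mark the octamer ATTTGCAT, CCAAT and TATAAA on either strand, and these letters can overlap.
HIST1H2BK: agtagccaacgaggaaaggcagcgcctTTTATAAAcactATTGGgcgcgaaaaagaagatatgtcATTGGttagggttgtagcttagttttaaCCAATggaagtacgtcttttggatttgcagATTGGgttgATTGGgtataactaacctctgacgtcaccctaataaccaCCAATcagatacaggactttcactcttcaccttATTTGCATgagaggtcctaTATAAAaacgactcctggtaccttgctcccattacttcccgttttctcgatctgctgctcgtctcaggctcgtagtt
HIST1H2AG: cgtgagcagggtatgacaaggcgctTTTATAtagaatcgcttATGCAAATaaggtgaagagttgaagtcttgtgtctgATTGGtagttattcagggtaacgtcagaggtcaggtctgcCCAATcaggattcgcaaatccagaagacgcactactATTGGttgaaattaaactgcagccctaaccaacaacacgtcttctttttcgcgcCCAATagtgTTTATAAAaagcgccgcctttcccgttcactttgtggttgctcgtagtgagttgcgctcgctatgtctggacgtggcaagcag
HIST2H2BE: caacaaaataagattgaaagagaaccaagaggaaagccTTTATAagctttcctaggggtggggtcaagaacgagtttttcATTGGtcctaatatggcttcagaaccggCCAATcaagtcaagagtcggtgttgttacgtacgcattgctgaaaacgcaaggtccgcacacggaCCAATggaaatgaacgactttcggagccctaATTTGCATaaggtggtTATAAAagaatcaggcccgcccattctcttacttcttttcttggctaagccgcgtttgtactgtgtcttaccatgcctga
HIST3H2A: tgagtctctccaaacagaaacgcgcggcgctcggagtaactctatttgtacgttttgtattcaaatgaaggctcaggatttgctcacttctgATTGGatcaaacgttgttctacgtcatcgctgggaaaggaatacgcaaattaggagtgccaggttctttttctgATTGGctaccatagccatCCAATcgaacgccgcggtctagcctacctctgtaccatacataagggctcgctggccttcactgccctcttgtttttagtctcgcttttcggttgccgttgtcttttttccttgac
A RefSeq window was at hand for 34 of the 38 members. The octamer was in 25 of the 34 windows (73.5%), against 1.8% of the windows of 27305 genes. CCAAT was in 34 of 34, against 35.7%, and TATAAA in 24 of 34 (70.6%), against 12%. The E2F-like letters TTTGGCGC and TTTCCCGC were in 0 of the 34 windows, against 0.659% and 1.66% of all. Of the 12 members at 5 FPKM or more 9 have the octamer and 10 TATAAA in the window: HIST3H2A and HIST1H2BN hold neither, and HIST1H2BD holds TATAAA only. HIST1H2BD rose by 3.18 with YKL 500 nM in WT (log2) and HIST1H2BN by 1.78. Windows of divergent neighbours overlap, so paired members share many of these matches.

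A 3′ stem-loop was found by its letters in at least 1 GENCODE v29 transcript of 19 of the 38 members. The stretch (capitals) with its 5 flanking bases on each side, 5′ to 3′ as DNA, is shown for 5 members whose polyadenylated RNA was measured at 5 FPKM or more and it is not the same in all 5.
HIST1H2AC: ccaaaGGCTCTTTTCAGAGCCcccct
HIST1H2AG: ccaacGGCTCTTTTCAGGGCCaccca
HIST1H2BD: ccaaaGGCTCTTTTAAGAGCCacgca
HIST2H2BE: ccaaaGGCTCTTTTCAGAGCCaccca
HIST3H2A: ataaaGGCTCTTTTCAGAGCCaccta
In 13 members an annotated transcript ran on for more than 100 bases past this site. For HIST1H2AG it ran on for 1761 bases, for HIST2H2BE for 1729, for HIST1H2AC for up to 1128 and for HIST3H2A for 390. Other GENCODE v29 models hold little more than the coding sequence, such as those of HIST1H2BK (381 bases) and HIST1H2AH (387 bases). Such models cannot show whether the gene has the stem-loop. The gene models behind the deposited FPKM, on build hg19, are not stated in these sources, and FPKM depends on their lengths.

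Depth is unknown, since the table holds FPKM only. The C312S DMSO and C312S THZ1 libraries stand apart, with summed FPKM over all genes of 794374 ± 15174 and 852330 ± 52891 (SD, n = 3, as for every mean given), while the other 5 C312S groups had means of 556810 to 591154 and the WT groups of 455948 to 628311. The level of the added spike-in RNAs over that of the genes also moved with treatment. Relative to DMSO of the same line it was 5.42-fold in WT THZ1, 2.16-fold in the WT combination at 2 µM and 1.61-fold in WT YKL 500 nM. It was 1.32-fold in the WT combination at 500 nM, 1.11-fold in WT YKL 2 µM and 0.949-fold in WT THZ531. In C312S it was 1.17-fold with THZ1 and 0.341-fold to 0.581-fold in the other treated groups. Scaling to the spike-in RNAs moved the median log2 difference of all tested genes by -2.07 (WT THZ1) to 1.46 (C312S THZ531) in the comparisons with DMSO. The share of calls that were higher was 0.257% for WT THZ1, 100% for C312S THZ531 and 5.15% for WT YKL 500 nM. Scaling to equal total FPKM moved the median by -0.15 to 0.46. No source used here says how much spike-in was added per cell. In such bulk samples fewer cells and less RNA per cell cannot be told apart. Of 16 blood cell markers KIT and HBA1 reached a group mean of 1 FPKM, while PTPRC, SPI1, GATA1, MPO and CD3E were at or near 0 in every group. Among 12 epithelial and fibroblast markers KRT18, KRT8, COL1A1 and THY1 reached it. The summed blood markers ranged over libraries from 3.14 to 7.67 FPKM in C312S and from 5.08 to 14.8 FPKM in WT, and moved with treatment: with YKL 500 nM in WT it was 5.53 to 5.68 FPKM, against 9.79 to 13.9 FPKM with DMSO. The summed epithelial and fibroblast markers were 34.5 to 36.6 FPKM with YKL 500 nM in C312S, against 25.2 to 30.7 FPKM with DMSO, and 49.9 to 52.5 FPKM with YKL 500 nM in WT, against 48.9 to 53.4 FPKM with DMSO. The part of such differences in the results was not tested. The table cannot show the C312S codon.

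Summed over the 38 members, the level was 391 ± 3.94 FPKM with YKL 500 nM in WT, against 50.4 ± 0.959 FPKM with DMSO. It was 407 ± 10.1 FPKM with YKL 2 µM, 447 ± 15.8 with THZ1, 454 ± 6.16 and 550.2 ± 12.5 with the combinations at 500 nM and 2 µM, and 121 ± 9.15 with THZ531. The 3 libraries of every treated WT group lay above all 3 DMSO libraries. In C312S, THZ1 gave a sum of 315 ± 23.7 FPKM, the combinations 116 ± 5.25 FPKM at 500 nM and 202 ± 4.43 FPKM at 2 µM, and THZ531 alone 64.9 ± 3.998 FPKM. YKL gave 74.9 ± 1.19 FPKM at 500 nM and 127 ± 13.4 FPKM at 2 µM, and DMSO 63.8 ± 4.73 FPKM. H2A genes summed to 96.0 ± 3.18 FPKM in WT YKL 500 nM, against 18.0 ± 1.46 FPKM in WT DMSO, and H2B genes to 295 ± 4.55 FPKM, against 32.4 ± 0.898 FPKM. H2B genes thus made up 75.5% of the sum in WT YKL 500 nM and 64.3% in WT DMSO, and 61.4% in C312S YKL 500 nM and 52.3% in C312S DMSO. The HIST1 cluster gave 356 ± 5.77 FPKM with YKL 500 nM in WT, against 40.0 ± 1.25 FPKM with DMSO, HIST2 15.5 ± 0.757 FPKM, against 3.36 ± 0.577 FPKM, and HIST3 18.7 ± 1.97 FPKM, against 7.04 ± 0.796 FPKM. HIST1H2BK alone was 50.9% of the sum in the WT combination at 2 µM and 37.2% in WT DMSO.

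**Figure D1:**
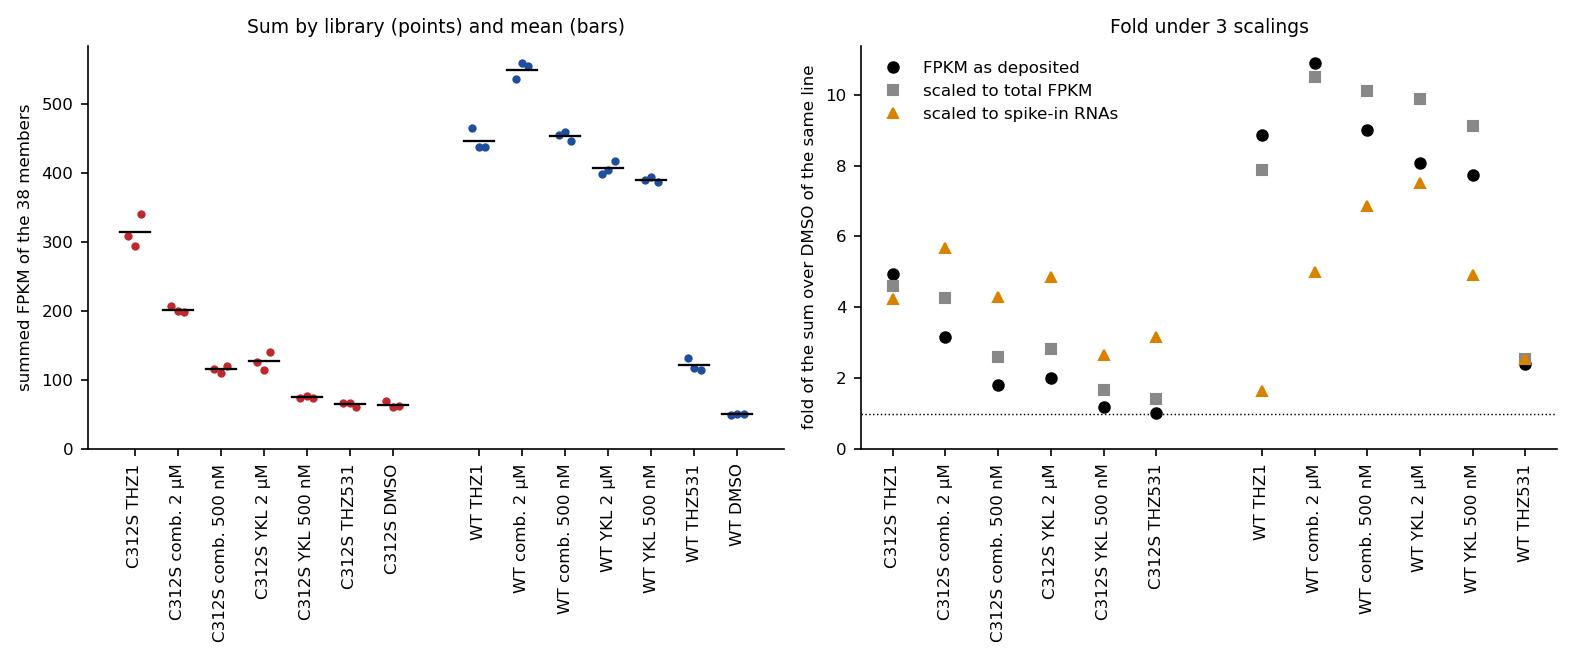
Left, summed FPKM of the 38 members in each library (points) with group means (bars), C312S in red and WT in blue. Right, fold of the group mean over DMSO of the same line with FPKM as deposited (circles), scaled to equal total FPKM (squares) and scaled to the spike-in RNAs (triangles): the WT THZ1 fold is 8.87 as deposited and 1.64 with spike-in scaling.

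The fold of the sum depended on the scale. Over DMSO it was 7.75 with FPKM as deposited and 4.92 with libraries scaled to the spike-in RNAs for YKL 500 nM in WT, and 8.07 and 7.51 for YKL 2 µM. For THZ1 in WT the same 2 values were 8.87 and 1.64, and for the WT combination at 2 µM 10.9 and 5.0. In C312S they were 1.17 and 2.64 for YKL 500 nM, 2.0 and 4.85 for YKL 2 µM, 1.02 and 3.15 for THZ531, and 4.94 and 4.23 for THZ1. Each scale therefore gave a mean sum above that of DMSO in all treated groups, by 1.02-fold at the least. That least fold was C312S THZ531 as deposited, with 67.3, 67.1 and 60.2 FPKM, against 69.1, 60.1 and 62.1 FPKM with DMSO. These libraries overlap, so no rise is shown there, and the sums were not tested. Beside each count that spike-in scaling moves by more than 1.5 times, the count under that scaling is given.

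Members differed widely in level. In a group 22 of 38 reached a mean of 1 FPKM, and the same number passed the filter of at least 1 FPKM in at least 3 libraries and were tested, 9 H2A and 13 H2B genes. Just inside the filter were HIST3H2BB, with a highest group mean of 1.22 FPKM, and HIST1H2BI with 1.24, and just outside were HIST1H2BL with 0.708 and HIST1H2BB with 0.626. HIST1H2AL, HIST1H2APS1, HIST1H2BA and HIST2H2BA were listed at 0 in all libraries. Of the 22 tested members, 7 stayed below a mean of 1 FPKM in both DMSO groups (HIST1H2AD, HIST1H2BF, HIST1H2BI, HIST1H2BO, HIST2H2BC, HIST2H2BF and HIST3H2BB) and so passed through treated libraries, which makes a higher call likely for them. Each count over the 22 is therefore followed by the count over the other 15, those at 1 FPKM in at least 1 DMSO group. In WT DMSO itself 13 of the 22 reached it. HIST1H2AE and HIST1H2AK, at 0.926 and 0.753 FPKM there, are among the 15 through C312S DMSO, at 1.74 and 1.18 FPKM. This favours a smaller effect in C312S for these genes, so the counts over the 15 are not free of the choice. At a group mean of 5 FPKM or more were 12 members, 4 H2A genes (HIST1H2AC, HIST1H2AG, HIST3H2A and HIST1H2AE) and 8 H2B genes (HIST1H2BK, HIST1H2BJ, HIST1H2BD, HIST1H2BC, HIST2H2BE, HIST1H2BG, HIST1H2BO and HIST1H2BN). All 12 peaked in a treated WT group, and 3 of them, HIST1H2BK, HIST3H2A and HIST1H2AC, reached 5 FPKM in a DMSO group. The other 9 were thus chosen through treated libraries, so a rise in WT, and a smaller one in C312S, is favoured by the choice, and their number is no support. Tests are of the difference in mean log2(FPKM + 1), given with its standard error, called at a Benjamini-Hochberg adjusted p below 0.05 over 12816 genes.

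With YKL 500 nM in WT, 19 of the 22 tested members rose and 0 fell, and of the 15 with DMSO expression 13 rose. Among all 12816 tested genes 31.3% were called higher and 31.7% lower. The median difference of the 22 was 1.36 and that of all tested genes -0.002. HIST1H2BK, an H2B gene of the HIST1 cluster, had 175, 180.2 and 179 FPKM with YKL 500 nM, against 20.7, 18.1 and 17.3 FPKM with DMSO. The groups were far apart, 9.52-fold in their means, a log2 difference of 3.19 ± 0.077 (adjusted p = 3.92e-25). HIST1H2BJ, another H2B gene, had 29.4, 32.4 and 29.2 FPKM, against 0.758, 1.45 and 1.89 FPKM with DMSO. Its log2 difference of 3.76 ± 0.196 was the largest of the 12 members at 5 FPKM (adjusted p = 9.73e-17). HIST1H2BD had 36.2, 37.3 and 35.3 FPKM, against 2.64, 3.89 and 2.88 FPKM with DMSO, and rose by 3.18 ± 0.192 (adjusted p = 3.26e-15). HIST2H2BE, an H2B gene outside the HIST1 cluster, had 11.2, 12.2 and 11.0 FPKM, against 1.33, 1.76 and 1.07 FPKM with DMSO. It rose by 2.39 ± 0.079 (adjusted p = 8.74e-22). HIST1H2BC had 10.2, 9.46 and 10.4 FPKM, against 2.70, 2.48 and 3.59 FPKM with DMSO, the smallest rise of these 5 H2B genes at 1.5 ± 0.24 (adjusted p = 2.58e-06). In all 5 the lowest treated library was above the highest DMSO library. Such separation was not counted over all tested genes, here or below, so it only describes the genes named.

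The 4 H2A genes at 5 FPKM also rose with YKL 500 nM. HIST1H2AC had 39.4, 36.0 and 37.8 FPKM, against 1.84, 2.98 and 1.83 FPKM with DMSO. This was 17.0-fold in the means and a log2 difference of 3.61 ± 0.113 (adjusted p = 2.43e-22). HIST1H2AG had 23.9, 24.3 and 19.2 FPKM, against 2.14, 3.02 and 2.13 FPKM with DMSO, a rise of 2.77 ± 0.169 (adjusted p = 3.99e-15). HIST3H2A, the H2A gene with the highest WT DMSO level, had 19.3, 15.6 and 19.0 FPKM, against 6.94, 5.94 and 7.88 FPKM with DMSO. Its rise was smaller, 1.26 ± 0.145 (adjusted p = 6.43e-09), and the libraries still did not overlap. HIST1H2AE averaged 7.13 ± 0.187 FPKM, against 0.926 ± 0.328 FPKM with DMSO. The other 3 H2B genes at this level, HIST1H2BG, HIST1H2BO and HIST1H2BN, averaged 5.47, 9.08 and 5.96 FPKM with YKL 500 nM, against 1.45, 0.523 and 1.08 FPKM with DMSO, and rose. Of the 10 tested members below 5 FPKM, 7 rose: HIST1H2AK, HIST1H2AM, HIST1H2BF, HIST1H2BI, HIST2H2BC, HIST2H2BF and HIST3H2BB, with group means of 0.770 to 4.84 FPKM with YKL 500 nM, against 0.0781 to 1.40 FPKM with DMSO. The 16 members that were not tested had group means of 0 to 0.708 FPKM over all groups.

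**Figure D2:**
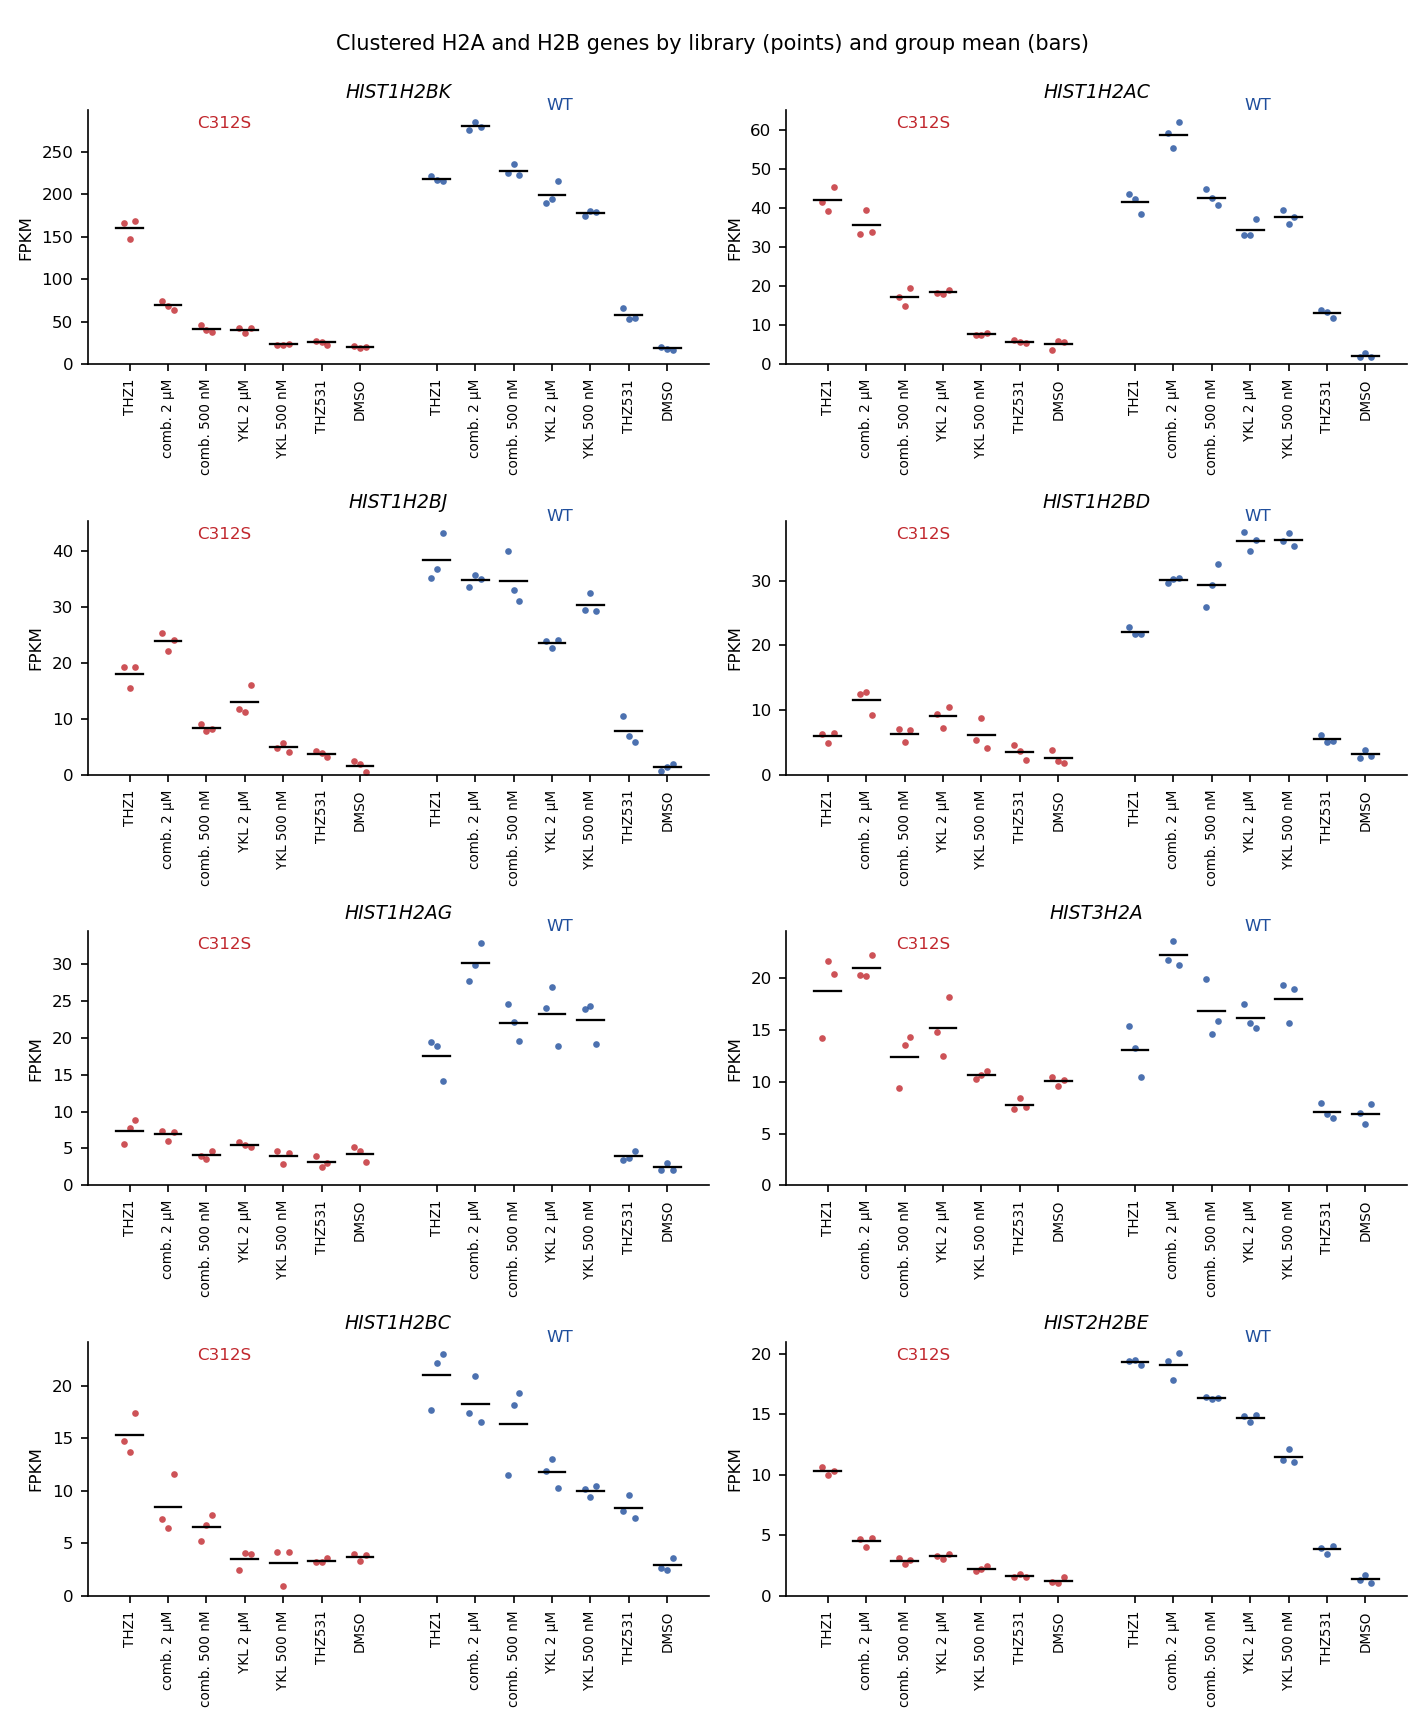
FPKM of the 8 members with the highest group means in each library (points) and group mean (bars), C312S groups in red on the left and WT groups in blue on the right of each panel, with DMSO last. HIST1H2BK reached 280.2 FPKM in the WT combination at 2 µM, against 18.7 FPKM in WT DMSO.

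YKL at 2 µM was set against DMSO and against 500 nM. Of the 22 tested members 17 rose and 1 fell, against 31.8% higher and 33.5% lower among all tested genes, and of the 15 with DMSO expression 13 rose and 1 fell. HIST1H2BK had 189, 194 and 216 FPKM and HIST1H2AC 33.1, 33.1 and 37.1 FPKM with 2 µM. The member that fell was HIST1H2AH, with 0.692, 0.220 and 0.389 FPKM against 0.758, 1.28 and 1.51 FPKM with DMSO (log2 difference -0.60 ± 0.236, adjusted p = 0.0254). It was not called without WT DMSO replicate 2 or 3, or without replicate 2 or 3 of YKL 2 µM, so that 0 members fell. Set against 500 nM directly, 2 µM raised 1 of the 22 and lowered 0 (1 and 0 of the 15), against 2.14% higher and 4.04% lower among all tested genes. That member was HIST2H2BE, with 14.8, 14.4 and 14.96 FPKM at 2 µM, against 11.2, 12.2 and 11.0 FPKM at 500 nM. Its log2 difference was 0.34 ± 0.079 (adjusted p = 0.00852). For HIST1H2BK the 95% interval of the difference between the doses was 0.005 to 0.32. With a pseudocount of 0.1 in place of 1 the count was 0, and with spike-in scaling, which moved the median of all genes by 0.50, it was 13. Of all 12816 tested genes 729 were called with that pseudocount, 31.8% of them higher, and 11504 with spike-in scaling, 99.9% of them higher.

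THZ1 and THZ531 are set side by side with YKL, since their doses are not known. With THZ1 in WT 18 of the 22 rose and 0 fell (of the 15 with DMSO expression, 13 rose), against 34.0% higher and 34.8% lower among all tested genes. HIST1H2BJ had 35.1, 36.7 and 43.2 FPKM with THZ1 (4.08 ± 0.196, adjusted p = 7.96e-18), HIST2H2BE 19.4, 19.4 and 19.0 FPKM and HIST1H2BC 17.7, 22.2 and 23.1 FPKM. For these 3 H2B genes no treated library was as low as any DMSO library. HIST3H2A had 15.4, 13.3 and 10.4 FPKM and rose less (0.82 ± 0.145, adjusted p = 9.82e-06). The WT THZ1 result rests on the scale: with spike-in scaling the median of all tested genes moved by -2.07, 6 of the 22 members rose and 5 fell, and HIST3H2A fell by 1.31 (adjusted p = 2.37e-09). Of all 12816 tested genes 12446 were called with that scaling, 0.257% of them higher. With THZ531 in WT 8 of the 22 rose and 1 fell (of the 15 with DMSO expression, 7 rose and 1 fell), against 24.0% and 22.9% among all tested genes. HIST1H2AC had 13.9, 13.3 and 11.9 FPKM with THZ531 and rose by 2.14 ± 0.113 (adjusted p = 1.62e-15). HIST1H2BK had 65.9, 53.7 and 54.0 FPKM and rose by 1.58 ± 0.077, and HIST1H2BJ had 10.4, 6.96 and 5.88 FPKM and rose by 1.89 ± 0.196 (adjusted p = 2.57e-16 and 4.26e-09). HIST3H2A, with 7.91, 6.90 and 6.51 FPKM, overlapped its DMSO libraries and was not called (95% interval -0.26 to 0.33). The member that fell was HIST1H2AM, with 0.567 FPKM, against 1.40 FPKM with DMSO. Without WT THZ531 replicate 3, listed at 0 for this gene, or without WT DMSO replicate 3, 0 members fell. Among the 10 tested members that stayed below 5 FPKM, HIST1H2AK averaged 3.17 FPKM with THZ1 and 0.615 FPKM with THZ531, against 0.753 FPKM with DMSO. HIST1H2AD passed a mean of 1 FPKM in 1 of the 14 groups, WT THZ1, at 1.25 FPKM.

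In WT, members were also compared between YKL with THZ531 and THZ531 alone. At 500 nM 16 of the 22 were higher than with THZ531 alone and 0 lower, against 31.5% and 29.7% of all tested genes. At 2 µM these were again 16 and 0, against 38.3% and 35.3%. Of the 15 with DMSO expression 13 rose at each dose. HIST1H2BK had 225, 236 and 222 FPKM at 500 nM and 276, 285 and 279 FPKM at 2 µM, against 65.9, 53.7 and 54.0 FPKM with THZ531 alone. Its log2 differences were 1.96 ± 0.077 and 2.26 ± 0.077 (adjusted p = 1.11e-19 and 1.45e-21). HIST1H2AG rose by 0.52 with THZ531 alone against DMSO (adjusted p = 0.0122), by 0.42 without WT THZ531 replicate 3 (adjusted p = 0.0734) and by 0.46 without WT DMSO replicate 1 or 3 (adjusted p = 0.0514 and 0.0512). It had 27.8, 29.9 and 32.9 FPKM in the combination at 2 µM, against 3.39, 3.74 and 4.62 FPKM with THZ531 alone (2.67 ± 0.169, adjusted p = 4.46e-15). HIST1H2BC differed least of the 12 at 5 FPKM, with 17.4, 20.9 and 16.6 FPKM, against 8.11, 9.59 and 7.45 FPKM (1.04 ± 0.24, adjusted p = 0.000272), and with spike-in scaling its difference was -0.063. Against DMSO, the combinations raised 17 and 16 of the 22 at 500 nM and 2 µM and lowered 1 each, HIST1H2AH. Of the 15 with DMSO expression 13 rose and 1 fell at each dose. The count that fell was 0 without WT DMSO replicate 2 or 3, without replicate 1 or 3 of the combination at 500 nM, and without replicate 1 or 2 of that at 2 µM. All tested genes were called higher in 34.0% and 38.9% and lower in 34.2% and 38.1%. These comparisons share their control libraries with those above.

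In C312S fewer members were called with YKL 500 nM. Against DMSO 6 of the 22 were higher and 3 lower, all of them among the 15 with DMSO expression. Of all tested genes 36.9% were higher and 39.6% lower. HIST1H2BK had 23.2, 23.0 and 23.9 FPKM with YKL 500 nM, against 20.9, 19.2 and 19.8 FPKM with DMSO. The groups did not overlap, and the difference was 0.21 ± 0.077 (adjusted p = 0.0129). HIST1H2AC had 7.56, 7.52 and 8.04 FPKM, against 3.71, 5.95 and 5.79 FPKM with DMSO (0.52 ± 0.113, adjusted p = 0.000112). HIST1H2BJ had 4.84, 5.75 and 4.05 FPKM, against 2.45, 1.84 and 0.552 FPKM with DMSO (1.24 ± 0.196, adjusted p = 1.18e-06). HIST1H2BD, HIST2H2BE and HIST1H2BN were the other 3 that rose, HIST1H2BN not without C312S DMSO replicate 1 or 2 or YKL 500 nM replicate 2 (adjusted p = 0.192, 0.0627 and 0.124). HIST1H2AG had 4.66, 2.84 and 4.45 FPKM, against 5.19, 4.62 and 3.12 FPKM with DMSO, which overlap (95% interval -0.44 to 0.25). Those that fell were HIST1H2AE, HIST1H2AH and HIST2H2AC, the last with 1.30 FPKM, against 3.01 FPKM with DMSO. HIST1H2AE did not fall without any 1 of 4 of the 6 libraries, at adjusted p of 0.0601 to 0.27. Single libraries moved these counts: 4 rose without C312S DMSO replicate 2, with HIST1H2BK at 0.19 (adjusted p = 0.0515), and 1 fell without C312S DMSO replicate 1 or without replicate 1 of YKL 500 nM. The C312S DMSO libraries are among those that stand apart, and with spike-in scaling, which moved the median of all genes by 1.03, 12 members were higher and 0 lower. With total-FPKM scaling 8 were higher and 0 lower. Of all 12816 tested genes spike-in scaling called 11358, 99.9% of them higher, and total-FPKM scaling 9871, 79.8% of them higher.

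With YKL 2 µM in C312S 9 of the 22 rose and 2 fell (8 and 2 of the 15), against 36.6% and 39.2% of all tested genes, and with spike-in scaling, which moved the median of all genes by 1.14, 18 rose and 0 fell. With total-FPKM scaling 12 rose and 0 fell. Of all 12816 tested genes spike-in scaling called 11836, 99.8% of them higher, and total-FPKM scaling 9893, 80.8% of them higher. Those that fell with FPKM as deposited were HIST1H2AH, with 0.709 FPKM, against 1.57 FPKM with DMSO, and HIST2H2AC, with 0.978 FPKM, against 3.01 FPKM with DMSO. The count that fell was 1 without C312S DMSO replicate 3 or without YKL 2 µM replicate 1 or 2. Against YKL 500 nM, a comparison that uses no DMSO library and was added after the data had been seen, 5 rose and 0 fell (5 and 0 of the 15), against 2.02% and 1.65%. HIST1H2AC had 18.1, 18.0 and 18.9 FPKM at 2 µM, against 7.56, 7.52 and 8.04 FPKM at 500 nM, a difference of 1.15 ± 0.113 (adjusted p = 6.48e-08). HIST1H2BK had 42.1, 36.8 and 42.4 FPKM at 2 µM and rose by 0.76 ± 0.077 over 500 nM (adjusted p = 1.07e-07), and HIST1H2BJ had 11.8, 11.3 and 16.1 FPKM and rose by 1.25 ± 0.196 (adjusted p = 0.000231). The other 2 were HIST2H2BE and HIST1H2AE, which was not called without 2 µM replicate 1 or 3 or 500 nM replicate 1 (adjusted p = 0.0609, 0.0975 and 0.146). In all 5 the 2 µM libraries lay above the 500 nM libraries, a separation that was not counted over all tested genes. Whether the step from 500 nM to 2 µM differs between C312S and WT was not tested.

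THZ531 in C312S raised 3 of the 22 and lowered 3 (3 and 3 of the 15), against 34.6% and 39.5% of all tested genes. HIST1H2BJ had 4.20, 3.83 and 3.21 FPKM, against 2.45, 1.84 and 0.552 FPKM with DMSO (0.93 ± 0.196, adjusted p = 8.61e-05), and HIST1H2BK and HIST2H2BE were the other 2 that rose. With spike-in scaling 14 were higher and with total-FPKM scaling 5, with 0 lower in both. Of all 12816 tested genes spike-in scaling called 12328, 100% of them higher, and total-FPKM scaling 9565, 81.1% of them higher. Those that fell with FPKM as deposited were HIST1H2AE, HIST1H2AM and HIST3H2A. Of these, 0 fell without C312S DMSO replicate 1, 1 without C312S THZ531 replicate 1 and 2 without C312S THZ531 replicate 3. The count that rose was 2 without replicate 2 of either group. THZ1 in C312S raised 12 and lowered 0 (10 and 0 of the 15), against 33.9% and 29.7%. HIST1H2BK had 166, 147 and 168 FPKM with THZ1, against 20.9, 19.2 and 19.8 FPKM with DMSO, an 8.03-fold difference in the means (2.94 ± 0.077, adjusted p = 1.79e-23). HIST1H2AC had 41.4, 39.2 and 45.2 FPKM in C312S, against 43.6, 42.4 and 38.4 FPKM in WT with the same treatment, which overlap. HIST1H2AG had 5.60, 7.75 and 8.89 FPKM in C312S, against 19.4, 19.0 and 14.2 FPKM in WT. HIST1H2BD had 6.37, 4.96 and 6.53 FPKM in C312S, against 22.8, 21.7 and 21.8 FPKM in WT. For these 2 genes the C312S libraries all lay below the WT libraries, a difference in level that was not tested. Both C312S groups of this comparison are the ones that stand apart in summed FPKM.

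Adding YKL 500 nM to THZ531 in C312S raised 5 of the 22 and lowered 0 (5 and 0 of the 15), a comparison in which few genes changed, 0.390% higher and 0.187% lower of all tested. HIST1H2AC had 17.1, 15.03 and 19.4 FPKM, against 6.10, 5.67 and 5.44 FPKM with THZ531 alone (1.43 ± 0.113, adjusted p = 1.28e-09). HIST1H2BK had 46.3, 40.7 and 37.8 FPKM, against 27.4, 26.5 and 22.9 FPKM (0.68 ± 0.077, adjusted p = 2.69e-06). HIST2H2BE, HIST1H2BJ and HIST3H2A were the others, HIST3H2A at an adjusted p of 0.0499. HIST3H2A was not called without any 1 of 5 of the 6 libraries, at adjusted p of 0.103 to 0.306. With only the 2 groups compared in the fit 2 members were called, without C312S THZ531 replicate 3 there were 3, and with spike-in scaling 8. Of all 12816 tested genes 10091 were called with spike-in scaling, 0.238% of them higher. With YKL 2 µM added 13 rose and 0 fell (12 and 0 of the 15), against 18.5% and 16.3% of all tested genes. HIST1H2BJ had 25.4, 22.1 and 24.0 FPKM, against 4.20, 3.83 and 3.21 FPKM with THZ531 alone (2.39 ± 0.196, adjusted p = 1.38e-10). HIST1H2AC had 33.3, 39.5 and 33.9 FPKM (2.44 ± 0.113, adjusted p = 4.32e-16) and HIST3H2A 20.3, 20.2 and 22.3 FPKM, against 7.36, 8.47 and 7.54 FPKM with THZ531 alone (1.32 ± 0.145, adjusted p = 4.14e-08). HIST1H2BG and HIST1H2BN also rose, but lost their calls without 1 of several single libraries, HIST1H2BG without 5 of the 6 at adjusted p of 0.0517 to 0.178 and HIST1H2BN without 3 at 0.0889 to 0.15. These comparisons use none of the libraries that stand apart. Against DMSO the combinations raised 9 and 12 of the 22 at 500 nM and 2 µM (8 and 11 of the 15) and lowered 0 and 1, HIST2H2AC, which did not fall without replicate 1 or 2 of the combination. Of all tested genes 35.0% and 32.8% were higher, and 38.4% and 35.9% lower.

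**Figure D3:**
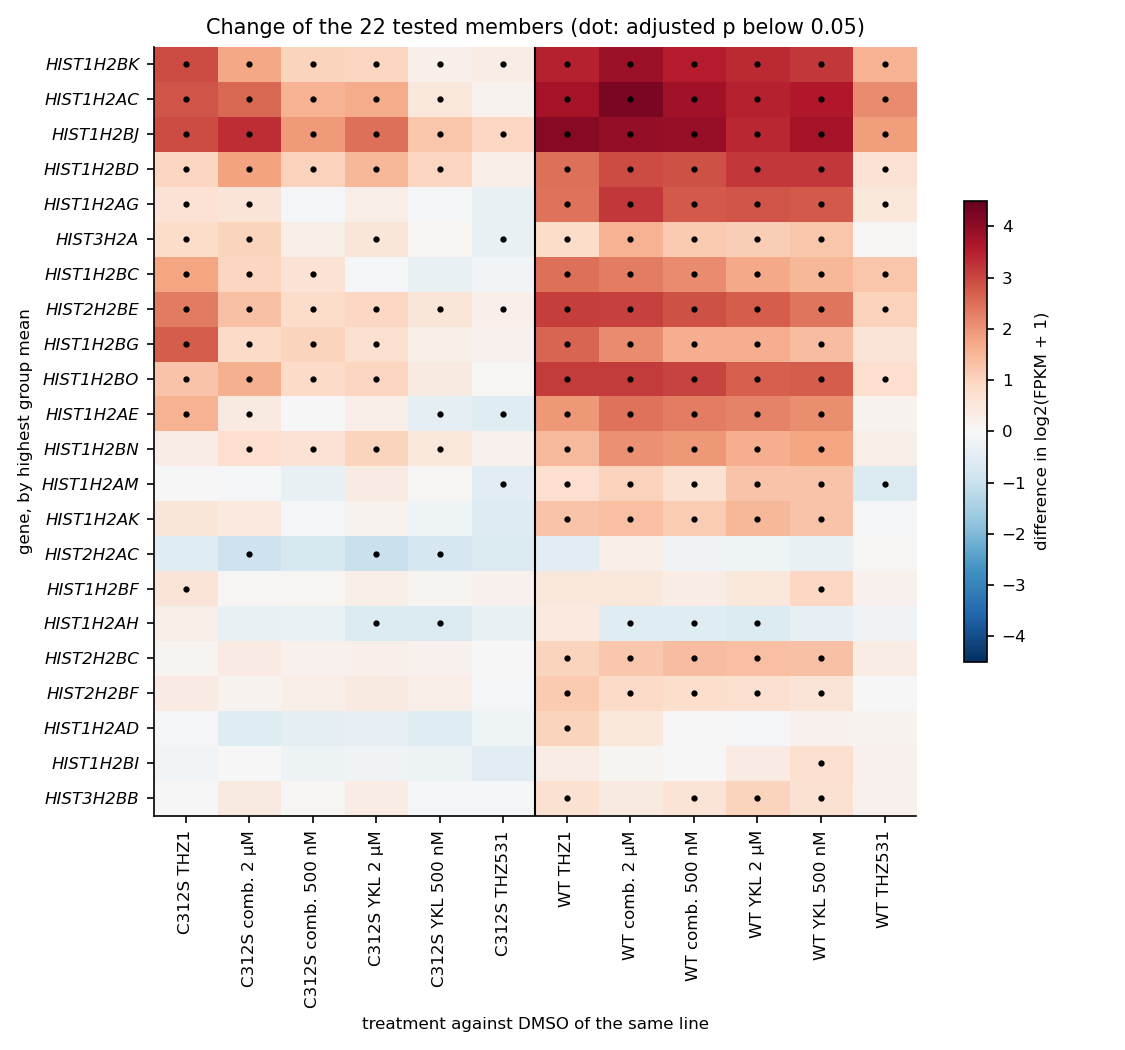
Difference in mean log2(FPKM + 1) from DMSO of the same line for the 22 tested members (rows, by highest group mean) in 6 treated C312S groups (left) and 6 treated WT groups (right), red for higher and blue for lower, with a dot where the adjusted p is below 0.05. With YKL 500 nM 19 members carry a dot for a rise in WT and 6 in C312S.

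With DMSO alone 4 of the 22 members were higher in C312S than in WT and 0 lower (4 and 0 of the 15), against 41.3% and 37.9% of all tested genes. HIST1H2AC had 3.71, 5.95 and 5.79 FPKM in C312S, against 1.84, 2.98 and 1.83 FPKM in WT (0.93 ± 0.113, adjusted p = 7.4e-09). HIST3H2A had 10.4, 9.59 and 10.2 FPKM in C312S, against 6.94, 5.94 and 7.88 FPKM in WT (0.49 ± 0.145, adjusted p = 0.00284). HIST1H2AG and HIST1H2AE were the other 2, so these 4 were the 4 H2A genes at 5 FPKM. HIST1H2AE was not called without WT DMSO replicate 3 (adjusted p = 0.077) or C312S DMSO replicate 1 (adjusted p = 0.0563). HIST1H2BK, with 20.9, 19.2 and 19.8 FPKM in C312S and 20.7, 18.1 and 17.3 FPKM in WT, was not called (95% interval -0.063 to 0.25). With spike-in scaling, which moved the median of all genes by -1.30, 0 members were higher and 12 lower, and HIST1H2AC differed by -0.17. With total-FPKM scaling 1 was higher and 4 lower. Of all 12816 tested genes spike-in scaling called 12134, 0.379% of them higher, and total-FPKM scaling 10000, 21.8% of them higher.

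Whether an effect differed between the lines was tested as the effect in C312S minus that in WT. For YKL 500 nM this difference was below 0 in 16 of the 22 members and above 0 in 0 (of the 15 with DMSO expression, 13 below), while among all tested genes 39.0% were below and 34.7% above. For HIST1H2AC the effects were 0.52 in C312S and 3.61 in WT, a difference of -3.08 ± 0.16 (95% interval -3.41 to -2.76, adjusted p = 1.06e-16). For HIST1H2BK they were 0.21 in C312S and 3.19 in WT, a difference of -2.97 ± 0.109 (adjusted p = 4e-20). For HIST1H2AG they were -0.091 in C312S and 2.77 in WT, a difference of -2.87 ± 0.239 (adjusted p = 4.22e-12). With spike-in scaling, which moved the median of all genes by 1.63, 9 members were below 0 and 1 was above, and HIST3H2A turned to 0.44. Of all 12816 tested genes 11903 were called with that scaling, 99.1% of them above 0. For YKL 2 µM 14 of the 22 were below 0 and 0 above (12 and 0 of the 15), against 37.4% and 34.4% of all tested genes. HIST1H2BK differed by -2.37 ± 0.109 (adjusted p = 6.92e-18) and HIST1H2BJ by -0.92 ± 0.278 (adjusted p = 0.00404). With spike-in scaling 9 were below 0 and 2 above, while 11068 of all 12816 tested genes were called, 97.9% of them above 0.

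The effect of adding YKL to THZ531 was compared in the same way, without DMSO libraries. At 500 nM it was smaller in C312S than in WT for 11 of the 22 and larger for 0 (9 and 0 of the 15), against 21.0% and 20.5% of all tested genes. HIST1H2AG differed most, by -1.93 ± 0.239 (adjusted p = 9.82e-08), and HIST1H2BK differed by -1.29 ± 0.109 (adjusted p = 6.09e-11). HIST1H2AC did not pass the test at 500 nM, with a difference of -0.21 ± 0.16 (95% interval -0.54 to 0.12). At 2 µM the effect was smaller for 9 and larger for 0 (8 and 0 of the 15), against 27.2% and 25.9% of all tested genes. Of the 12 members at 5 FPKM, HIST1H2AC, HIST1H2BJ, HIST1H2BC and HIST3H2A did not pass the test. The 95% intervals of their differences were 0.020 to 0.67, -0.24 to 0.90, -0.65 to 0.73 and -0.62 to 0.22. HIST1H2AC passed it, at 0.41 (adjusted p = 0.0444), without WT THZ531 replicate 3, and was then larger in C312S. HIST1H2AG stayed apart, at -1.74 ± 0.239 (adjusted p = 3.99e-07), and with spike-in scaling 5 members were below 0 and 2 above. Of all 12816 tested genes 5825 were called with that scaling, 91.2% of them above 0. For THZ1 the effect was smaller in C312S for 12 of the 22 and larger for 0 (8 and 0 of the 15), against 19.8% and 22.4%. HIST1H2BO had the largest difference of the 12 at 5 FPKM, -1.86 ± 0.282 (adjusted p = 3.26e-06), and HIST3H2A the smallest, -0.006 ± 0.205 (adjusted p = 0.988). The count of 12 stayed within 1.5 times with total-FPKM and median-ratio scaling, but this direction did not hold with spike-in scaling. That scaling moved the median of all genes by 1.89, 0 members were smaller and 9 larger, and HIST1H2BK differed by 1.59. Of all 12816 tested genes 12317 were called with it, 99.9% of them above 0.

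**Figure D4:**
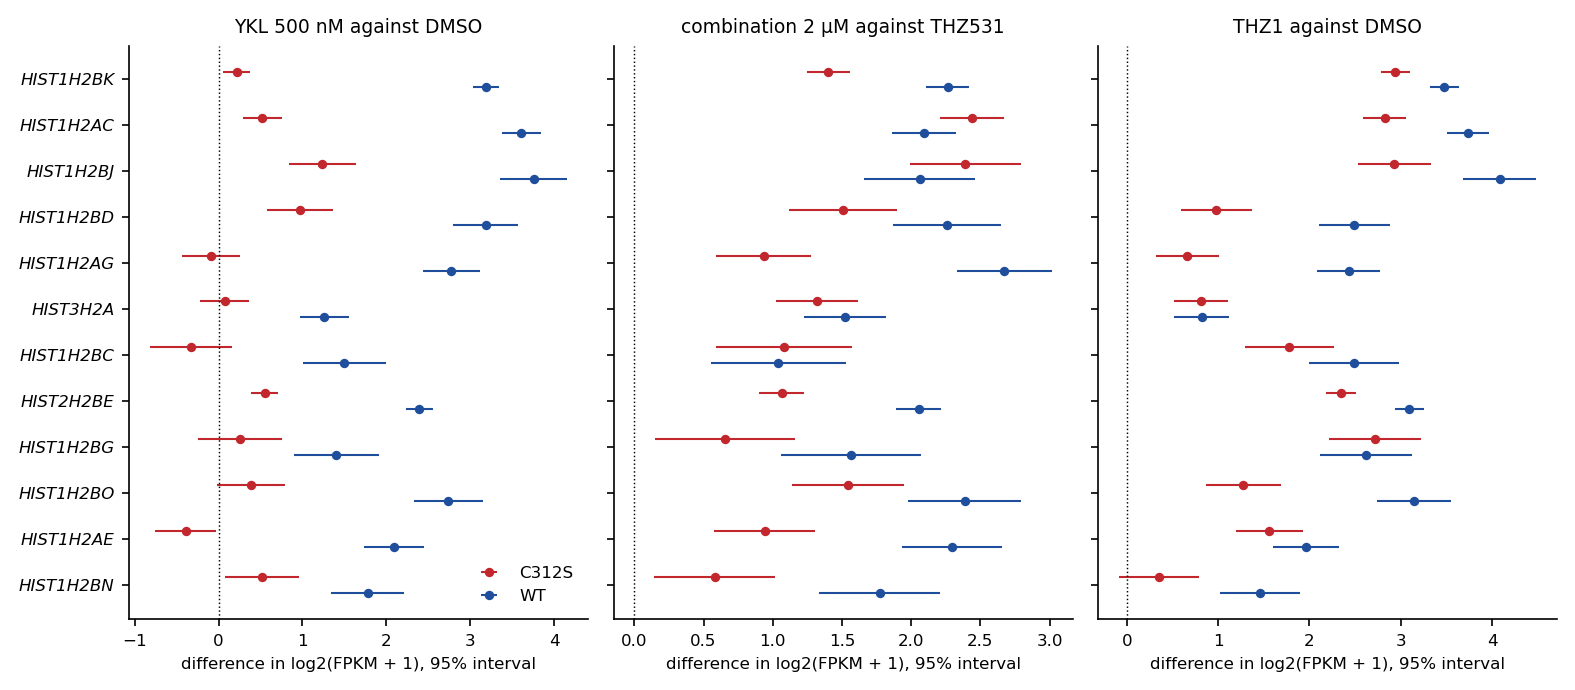
Difference in mean log2(FPKM + 1) with its 95% interval for the 12 members at 5 FPKM, C312S in red and WT in blue, for YKL 500 nM against DMSO (left), the combination at 2 µM against THZ531 (middle) and THZ1 against DMSO (right). HIST1H2BK changed by 0.21 in C312S and 3.19 in WT with YKL 500 nM.

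Divergent partners did not always move together. The annotated starts of 12 H2A and H2B pairs lie 194 to 248 bases apart, and these 24 members include 11 of the 12 at 5 FPKM, with HIST1H2BD outside any pair. In 3 pairs neither gene was tested. With YKL 500 nM in WT both genes rose in 6 of the other 9, and in 3 the H2B gene rose while the H2A gene was not called. Among all tested genes 31.3% were called higher. HIST1H2AD, HIST1H2BF, HIST1H2BO and HIST3H2BB passed the filter through treated libraries, which makes a higher call likely. In the pairs without them, both genes rose in HIST1H2AC/HIST1H2BC, HIST1H2AE/HIST1H2BG, HIST1H2AG/HIST1H2BJ and HIST1H2AK/HIST1H2BN, and only the H2B gene in HIST1H2AH/HIST1H2BK and HIST2H2AC/HIST2H2BE. Of these genes, HIST1H2AE and HIST1H2AK were below a mean of 1 FPKM in WT DMSO, at 0.926 and 0.753 FPKM. HIST1H2AG and HIST1H2BJ, which share the promoter window shown above for HIST1H2AG, averaged 22.5 ± 2.85 and 30.4 ± 1.82 FPKM with YKL 500 nM, against 2.43 ± 0.512 and 1.36 ± 0.570 FPKM with DMSO. HIST1H2AC and HIST1H2BC averaged 37.7 ± 1.70 and 10.0 ± 0.511 FPKM, against 2.22 ± 0.664 and 2.92 ± 0.587 FPKM with DMSO. In these 2 pairs both partners rose, HIST1H2AC more than HIST1H2BC. HIST1H2AH, the partner of HIST1H2BK, had 0.754, 0.948 and 0.367 FPKM with YKL 500 nM, against 0.758, 1.28 and 1.51 FPKM with DMSO, and was not called (-0.37 ± 0.236, adjusted p = 0.173). In the combination at 2 µM HIST1H2AH averaged 0.480 ± 0.127 FPKM while HIST1H2BK averaged 280.2 ± 4.75 FPKM. HIST2H2AC, the partner of HIST2H2BE, had 0.600, 1.36 and 0.875 FPKM with YKL 500 nM, against 2.11, 1.34 and 0.901 FPKM with DMSO (-0.32 ± 0.337, adjusted p = 0.415). It was called in none of the WT comparisons with DMSO. The third such H2A gene, HIST1H2AD, was below 1 FPKM in both groups. HIST3H2A and HIST3H2BB differed in level throughout, 18.0 and 0.770 FPKM with YKL 500 nM.

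**Figure D5:**
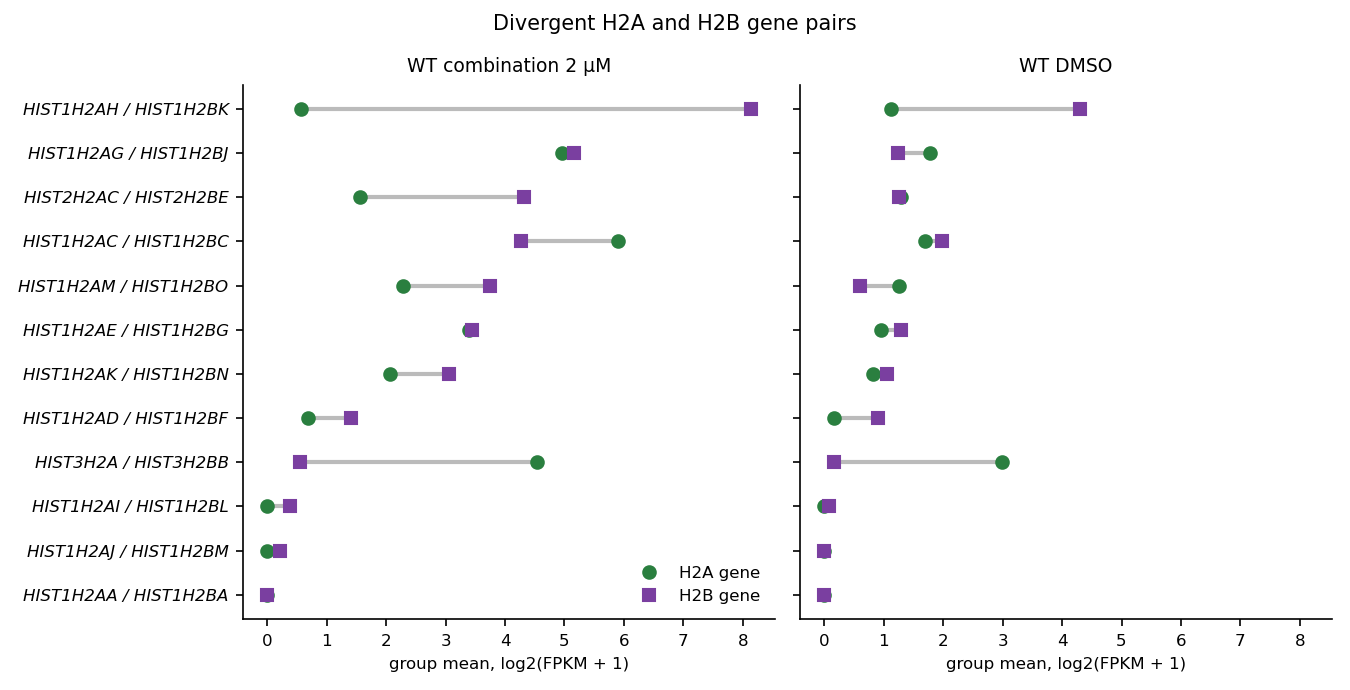
Group mean log2(FPKM + 1) of the H2A gene (circle) and the H2B gene (square) of 12 divergent pairs in the WT combination at 2 µM (left) and WT DMSO (right). HIST1H2AH stands at 0.480 FPKM beside HIST1H2BK at 280.2 FPKM in the combination, while HIST1H2AG and HIST1H2BJ stand at 30.2 and 34.7 FPKM.

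The members at 5 FPKM also differed from the rest in their GENCODE v29 models, given here as a description. A transcript longer than 500 bases was annotated for 10 of the 12 and for 11 of the other 26, and a stem-loop for 9 of the 12 and 10 of the 26. Many models without a stem-loop hold little more than the coding sequence, such as those of HIST1H2BK and HIST1H2AH. The count of stem-loops thus depends on how far the models reach, and does not show which genes lack one. Reads can be ambiguous between copies. For 1 of the 12, HIST1H2BK, more than 50% of the 50-base stretches of its transcript also occur in another gene's transcript (74.1%, most of them in H2BFS), against 7 of the other 26. HIST1H2BK is therefore uncertain as a single gene, and H2BFS was not analysed here. For HIST1H2AC this share was 0.421%, for HIST1H2BJ 4.65%, for HIST1H2BD 5.36%, for HIST2H2BE 8.11% and for HIST1H2AG 4.13%. The shares also depend on the models, since that of HIST1H2BK holds 381 bases while those of HIST1H2AC reach 1668 bases. HIST2H2AA3 and HIST2H2AA4 share 100% and 97.1% of theirs, and reached a group mean of at most 0.164 FPKM. HIST1H2AD shares 98% and HIST1H2AM 86.3% with neighbouring transcripts, and the values of both are uncertain. How the authors divided such reads, no source used here says.

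Other histone genes were described beside the members. Of 35 rows for H1, H3 and H4 genes 15 were tested, and with YKL 500 nM in WT 10 rose and 2 fell (median 0.78), while 31.3% of all tested genes rose and 31.7% fell. These 15 passed the same filter, and those that passed it through treated libraries are likely to be called higher. HIST1H3D, for example, averaged 0.296 FPKM in WT DMSO. They were not counted by DMSO level, so their number is no support. With THZ531 in WT 1 of the 15 rose and 0 fell, against 24.0% and 22.9% of all tested genes. HIST1H1C, which codes for a linker histone, averaged 30.9 ± 1.43 FPKM with YKL 500 nM in WT, against 6.02 ± 0.328 FPKM with DMSO (2.18 ± 0.081, adjusted p = 1.65e-20). HIST1H3G averaged 12.2 ± 2.04 FPKM, against 1.66 ± 0.506 FPKM with DMSO (2.31 ± 0.238). In C312S 1 of the 15 rose and 1 fell with YKL 500 nM, against 36.9% and 39.6% of all tested genes. The genes listed as replication-independent for H2A and H2B proteins, mostly expressed throughout the cell cycle from polyadenylated messages, gave a mixed picture. Of 6 tested, 2 rose and 3 fell with YKL 500 nM in WT, against 31.3% and 31.7% of all tested genes. H2AFZ, coding for H2A.Z, averaged 531.4 ± 7.82 FPKM, against 880.1 ± 49.3 FPKM with DMSO (-0.72 ± 0.042, adjusted p = 1.44e-15). H2AFX, coding for the H2A.X that is phosphorylated at DNA breaks, fell by 0.52, and H2AFJ rose by 0.87 ± 0.078 to 6.31 ± 0.181 FPKM, against 3.02 ± 0.486 FPKM with DMSO.

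Of 32 tested S phase genes, 3 rose and 28 fell in WT with YKL 500 nM (median -0.58), while 31.3% of all tested genes rose and 31.7% fell. With THZ1 3 rose and 25 fell, against 34.0% and 34.8%, and with THZ531 4 rose and 15 fell, against 24.0% and 22.9%. MCM6, a subunit of the replicative helicase, averaged 49.0 ± 0.189 FPKM with YKL 500 nM, against 112 ± 3.13 FPKM with DMSO (-1.18 ± 0.038, adjusted p = 5.69e-22). In C312S 12 of the 32 rose and 16 fell with YKL 500 nM, against 36.9% and 39.6% of all tested genes. Of 20 genes for the formation and decay of histone messenger RNA ends, 6 rose and 9 fell in WT with YKL 500 nM (median -0.089), against 31.3% higher and 31.7% lower among all tested genes. SLBP, the stem-loop binding protein, averaged 69.7 ± 1.32 FPKM, against 103 ± 4.55 FPKM with DMSO (-0.56 ± 0.048, adjusted p = 1.01e-11). COIL, the scaffold of Cajal bodies, averaged 9.59 ± 0.244 FPKM, against 16.2 ± 0.740 FPKM (-0.70 ± 0.054), and NELFE, a subunit of the elongation factor NELF, averaged 84.5 ± 2.65 FPKM, against 49.2 ± 3.14 FPKM (0.77 ± 0.059). With THZ1, CPSF2, a subunit of the cleavage complex, averaged 18.8 ± 0.511 FPKM, against 34.1 ± 0.732 FPKM with DMSO (-0.83 ± 0.056, adjusted p = 2.92e-14). Of 19 genes for H2A-H2B chaperones and for adding or removing ubiquitin on these histones, 2 rose and 11 fell in WT with YKL 500 nM, against those same shares. Among them NPM1, a nucleolar histone chaperone, averaged 932 ± 3.84 FPKM, against 1660.0 ± 148 FPKM with DMSO (-0.83 ± 0.065), and RNF20, an H2B ubiquitin ligase, averaged 24.6 ± 0.189 FPKM, against 21.0 ± 1.35 FPKM (0.22 ± 0.042). The part of these genes in the members' levels was not tested.

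Over the 14 group means, the genes outside the clusters whose log2(FPKM + 1) followed the summed level of the members most closely were ZNF23 (Pearson r = 0.972), SBNO1 (0.969), LOH12CR1 (0.967), TUFT1 (0.966) and TPD52L2 (0.958). These are the closest 5 of the tested genes, so high values are given by the choice, and the points share the libraries and their scaling. TUFT1 ranged over groups from 7.51 to 22.8 FPKM and TPD52L2 from 75.1 to 123.1 FPKM, smaller ranges than that of the sum, 50.4 to 550.2 FPKM.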

How the data were processed

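Polyadenylated RNA of 42 libraries was sequenced with a stranded kit, per the labels' protocols. The deposited table gives FPKM per gene for 26228 genes and 92 spike-in RNAs. Per the submitters' processing notes, the authors used HISAT2 2.0.4, Cufflinks 2.2.1 and Cuffnorm on build hg19, with no settings given. FPKM hold no depth, so no count test was used and no counting interval is given.

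All tests used limma 3.58.1 (R 4.3.3), with a trend on mean expression, on log2(FPKM + 1) of the 12816 genes that reached 1 FPKM in 3 or more libraries. 14 group means were fitted over 42 libraries (28 residual degrees of freedom). P-values were Benjamini-Hochberg adjusted within each of 24 comparisons and called below 0.05. On this scale the fold change of a low gene comes out too small. A difference of 2 effects was tested as an interaction contrast. Python 3.11.15 with pandas 2.3.3 was used for sums, sequences and figures. The fit was tested on simulated data.

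Members with a group mean of at least 5 FPKM are named, and the 8 highest are given by library. From each gene list up to 2 higher and 2 lower genes with the smallest p in WT YKL 500 nM and WT THZ1 could be named. HIST1H2AH, HIST1H2AM, HIST2H2AC and other members below 5 FPKM that are singled out were chosen after their values were seen. The members and lists (clustered H1, H3 and H4 genes, replication-independent H2A and H2B genes, histone mRNA end formation and decay genes, H2A-H2B chaperone and ubiquitin genes, S phase genes, and 2 marker lists) were chosen with earlier results of these data known. The comparison of YKL doses in C312S, and the counts over 15 members with DMSO expression, were added after the data had been seen.

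Alternatives were a pseudocount of 0.1, no filter, scaling to total FPKM, to the spike-in RNAs or by median ratios, a fit of only the groups compared, a replicate block, and leaving out each library. Promoter windows came from RefSeq (GRCh38.p14) and transcripts from GENCODE v29 (GRCh38), matched by symbol. They serve for sequence only, and no coordinate was converted between builds.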

Additional observations from a re-analysis of the deposited data

Results flagged for a closer look

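The results in which the lines differed are listed because the difference between their effects itself passed the test (limma, Benjamini-Hochberg adjusted p below 0.05 over all tested genes). Each value below is negative, so each effect was smaller in C312S than in WT with FPKM as deposited.

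For YKL 500 nM, the effect in C312S minus that in WT, on the log2(FPKM + 1) scale, was -3.08 for HIST1H2AC, -2.48 for HIST1H2AE, -2.87 for HIST1H2AG, -1.83 for HIST1H2BC, -2.22 for HIST1H2BD, -1.15 for HIST1H2BG, -2.52 for HIST1H2BJ, -2.97 for HIST1H2BK, -1.26 for HIST1H2BN, -2.35 for HIST1H2BO, -1.84 for HIST2H2BE and -1.19 for HIST3H2A. The adjusted p of these 12 lay between 4e-20 and 0.00402.

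For YKL 2 µM, the effect in C312S minus that in WT, on the log2(FPKM + 1) scale, was -1.80 for HIST1H2AC, -1.92 for HIST1H2AE, -2.52 for HIST1H2AG, -1.80 for HIST1H2BC, -1.67 for HIST1H2BD, -0.91 for HIST1H2BG, -0.92 for HIST1H2BJ, -2.37 for HIST1H2BK, -1.72 for HIST1H2BO, -1.78 for HIST2H2BE and -0.59 for HIST3H2A. The adjusted p of these 11 lay between 6.92e-18 and 0.0216.

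For THZ1, the effect in C312S minus that in WT, on the log2(FPKM + 1) scale, was -0.92 for HIST1H2AC, -1.76 for HIST1H2AG, -1.51 for HIST1H2BD, -1.15 for HIST1H2BJ, -0.54 for HIST1H2BK, -1.11 for HIST1H2BN, -1.86 for HIST1H2BO and -0.75 for HIST2H2BE. The adjusted p of these 8 lay between 5.33e-07 and 0.00373.

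For YKL 500 nM added to THZ531, the effect in C312S minus that in WT, on the log2(FPKM + 1) scale, was -1.58 for HIST1H2AE, -1.93 for HIST1H2AG, -1.48 for HIST1H2BD, -1.07 for HIST1H2BJ, -1.29 for HIST1H2BK, -1.21 for HIST1H2BN, -1.45 for HIST1H2BO, -1.27 for HIST2H2BE and -0.53 for HIST3H2A. The adjusted p of these 9 lay between 6.09e-11 and 0.0368.

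For YKL 2 µM added to THZ531, the effect in C312S minus that in WT, on the log2(FPKM + 1) scale, was -1.36 for HIST1H2AE, -1.74 for HIST1H2AG, -0.75 for HIST1H2BD, -0.91 for HIST1H2BG, -0.86 for HIST1H2BK, -1.19 for HIST1H2BN, -0.84 for HIST1H2BO and -0.99 for HIST2H2BE. The adjusted p of these 8 lay between 1.23e-08 and 0.0285.

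The values for YKL and THZ1 use the C312S DMSO libraries, which stand apart in summed FPKM, and the values for THZ1 use the C312S THZ1 libraries, which do too. The values for YKL added to THZ531 use neither. HIST1H2BG for YKL 2 µM alone and added to THZ531, HIST3H2A for YKL 2 µM and for YKL 500 nM added to THZ531, and HIST1H2BD for YKL 2 µM added to THZ531 were no longer past the test when some single libraries were left out, with adjusted p of 0.0504 to 0.156. Under spike-in scaling all 8 THZ1 values but that of HIST1H2BO changed sign. HIST3H2A also changed sign, to 0.44 for YKL 500 nM and 0.64 for YKL 2 µM. With that scaling the members of all 22 tested that were called lower were 9 for YKL 500 nM, 9 for YKL 2 µM and 5 for YKL 2 µM added to THZ531. Members listed here other than HIST1H2BK, HIST3H2A and HIST1H2AC were chosen through treated libraries, which favours a smaller effect in C312S.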

How the results depend on the processing

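The count followed was that of members called lower in each difference between the effects of the lines, and of members called higher in every other comparison. This count stayed within 1.5 times in all 24 comparisons with median-ratio scaling, with no filter and with a replicate block, in 23 with only the groups compared and with a pseudocount of 0.1, and in 22 with total-FPKM scaling. With spike-in scaling it moved in 11 of 24. The cause was not tested. With that scaling, the members called higher were 6 for WT THZ1, 12 for C312S YKL 500 nM, 18 for C312S YKL 2 µM, 14 for C312S THZ531, 13 for WT YKL 2 µM against 500 nM, 8 for the C312S combination at 500 nM against THZ531 and 0 for C312S DMSO against WT DMSO. In the same order, 12446, 11358, 11836, 12328, 11504, 10091 and 12134 of all 12816 tested genes were called. The shares of these calls that were higher were 0.257%, 99.9%, 99.8%, 100%, 99.9%, 0.238% and 0.379%. The members with a smaller effect in C312S were 9 for YKL 500 nM, 9 for YKL 2 µM, 0 for THZ1 and 5 for YKL 2 µM added to THZ531. Over all tested genes 11903, 11068, 12317 and 5825 of these differences were called, 99.1%, 97.9%, 99.9% and 91.2% of them above 0. With total-FPKM scaling, 5 members were higher for C312S THZ531 and 1 for C312S DMSO against WT DMSO. Over all tested genes 9565 and 10000 were called in these comparisons, 81.1% and 21.8% of them higher. The count for WT YKL 2 µM against 500 nM was 0 with a pseudocount of 0.1, and that for the C312S combination at 500 nM against THZ531 was 2 with only the groups compared.

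Of 288 log2 differences of single members, 34 changed sign with spike-in scaling and 3 with total-FPKM scaling. With spike-in scaling HIST1H2BN was at -0.13 and HIST3H2A at -1.31 for WT THZ1. For C312S YKL 500 nM HIST1H2AE was at 0.26 and HIST1H2AG at 0.81, and for C312S YKL 2 µM HIST1H2BC was at 0.88. For C312S THZ531 HIST1H2AE was at 0.33, HIST1H2AG at 0.92, HIST1H2BC at 1.13 and HIST3H2A at 1.11 (0.098 with total-FPKM scaling). For the C312S combination at 500 nM HIST1H2AG was at 0.92, and at 0.36 with total-FPKM scaling. For WT YKL 2 µM against 500 nM HIST1H2AC was at 0.40, HIST1H2BD at 0.53, HIST1H2BO at 0.44 and HIST3H2A at 0.37, and for the WT combination at 2 µM against THZ531 HIST1H2BC was at -0.063. For C312S DMSO against WT DMSO HIST1H2AC was at -0.17, HIST1H2AE at -0.28, HIST1H2AG at -0.47, HIST1H2BC at -0.82, HIST1H2BJ at -0.70, HIST1H2BK at -1.28 (-0.39 with total-FPKM scaling) and HIST3H2A at -0.80. In the differences between lines HIST3H2A was at 0.44 for YKL 500 nM and 0.64 for YKL 2 µM. For THZ1 they were 0.90 for HIST1H2AC, 0.91 for HIST1H2AE, 0.073 for HIST1H2AG, 1.08 for HIST1H2BC, 0.34 for HIST1H2BD, 0.40 for HIST1H2BJ, 1.59 for HIST1H2BK, 0.31 for HIST1H2BN, 0.76 for HIST2H2BE and 1.88 for HIST3H2A.

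Leaving out each library kept the same count within 1.5 times in 173 of 174 fits. The exception was the C312S combination at 500 nM against THZ531, with 3 to 5 members. The smaller counts in the other direction moved more: members called lower were 0 to 4 for C312S THZ531, 1 to 3 for C312S YKL 500 nM, and 0 to 1 for WT YKL 2 µM, WT THZ531 and both WT combinations against DMSO. No single-member difference changed sign in 2088 such fits, while 66 lost and 24 gained a call. The replicate numbers gave no pairing: over 126 pairs of same-numbered libraries the correlation of their deviations was -0.207 to 0.248, with 15 above 0.1. With the replicate block 18 members rose with YKL 500 nM in WT, and of the single-member differences 2 lost and 1 gained a call. With the block the members called lower were 0 for the WT combination at 500 nM against DMSO and 1 for that in C312S. Since depth is unknown, members near 0 FPKM cannot be given a detection limit.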
